A study of Mus musculus with 12 samples.

Results

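The cells described here were sorted from irradiated mice by surface CD49b into a CD49b+ and a CD49b− gate: 209 and 266 cells, together 475 of the 960 cells retained from the 1150 wells of the series. They were chosen as all wells on the 6 irradiated plates with at least 1000 UMIs (molecular identifiers, of which each marks 1 captured mRNA molecule), at least 500 detected genes and under 20% of UMIs from mitochondrial genes. On CD49b+ plates, wells of 10000 or more UMIs were also left out. The tissue was the longitudinal muscle with the attached myenteric plexus (LMMP) of adult C57BL/6 mouse intestine. Whatever their CD49b gate, all cells were Dclk1-tdTom+, that is, positive for a red fluorescent reporter named for the kinase gene Dclk1. The labels give no further allele and do not say which promoter drives the reporter. All 6 mice of these plates were given 3 mg tamoxifen and then 10.5 Gy after 7 days, and their tissue was taken 3 days after that. The mice of replicate 1 were 8 weeks old at tamoxifen, and those of replicates 2 and 3 were 9 weeks old. Each replicate was a pool of 2 mice from which 1 CD49b− and 1 CD49b+ plate were sorted, so the gates were compared within the same animals and single animals cannot be told apart. The homeostasis plates, set beside these where stated, came from mice given the same tamoxifen without irradiation, 8, 9 and 8 weeks old in replicates 1 to 3, with tissue taken 10 days after tamoxifen.

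The myenteric plexus is a network of ganglia between the muscle layers of the gut, in which enteric neurons drive and relax the muscle and enteric glia surround them. Enteric glia are descended from the neural crest like the neurons, depend on the transcription factor Sox10, carry S100b and Gfap, and are known to present antigen, release chemokines and take up potassium and transmitters when the gut is inflamed or injured. CD49b is the alpha 2 chain of a collagen-binding integrin. The labels call the CD49b− cells neuronal and the CD49b+ cells glial.

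The labels were first set against cell type markers. Every retained CD49b− well (266 of 266) held more UMIs of 18 neuron markers than of 15 enteric glia markers, and every retained CD49b+ well (209 of 209) held more of the glia markers. The latter count depends on the upper UMI limit, since the 4 CD49b+ wells that it left out each held more of the neuron markers. CD49b− wells held a median of 91.0 neuron and 5.0 glia marker UMIs, and CD49b+ wells a median of 2.0 and 77.0. Itga2, which encodes CD49b (chr13:114833081-114932100, minus strand, GRCm38), gave 13 UMIs on the CD49b+ plates and 0 on the CD49b− plates, at least 16.7-fold higher against a floor of 3 UMIs over the 3 plates of a gate. It was too low to be tested. Dclk1, whose reporter both gates share, stood at 58.1, 62.2 and 51.8 CPM on CD49b+ plates 1, 2 and 3, named by replicate, and at 166, 168 and 133 CPM on the CD49b− plates (log2FC −1.43 ± 0.35, adjusted p = 0.0024). CPM are UMI counts scaled to a common total over the tested genes, normalised with edgeR's TMM factors. The log2FC is the fitted log2 fold change of CD49b+ over CD49b− cells, ± its SE. That SE is the absolute log2FC divided by the square root of the test's F statistic, and intervals of the log2FC use it. Adjusted p is the Benjamini-Hochberg value of edgeR's quasi-likelihood test over 3 plates a gate. The retained wells of a plate summed to between 150561 and 205844 UMIs for CD49b+ and between 541729 and 742100 for CD49b− cells. The CD49b− wells were deeper, with plate medians of 5904.5, 7527 and 7674 UMIs against 2327, 2583 and 2486.5. Markers of other gut cells, as summed CPM of all retained UMIs, ran from 19.9 to 119 for smooth muscle, from 24.3 to 53.1 for endothelium and from 0 to 4.86 for epithelium on the CD49b+ plates. On the CD49b− plates they ran from 32.3 to 177, from 25.7 to 40.6 and from 135 to 193, the last mostly from Chga, which had 317 UMIs and is also a granule gene of neurons. Markers of interstitial cells of Cajal, the gut's pacemaker cells, ran from 12.5 to 46.5 on the CD49b+ and from 217 to 309 on the CD49b− plates. The UMIs on the CD49b− plates were all from Etv1 (log2FC −3.52 ± 0.40), and the other 4 of the 5 markers were at 0 there. All 4 mesothelial markers were at 0 on the CD49b+ plates. The part of such cells in the results was not tested.

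**Figure D1:**
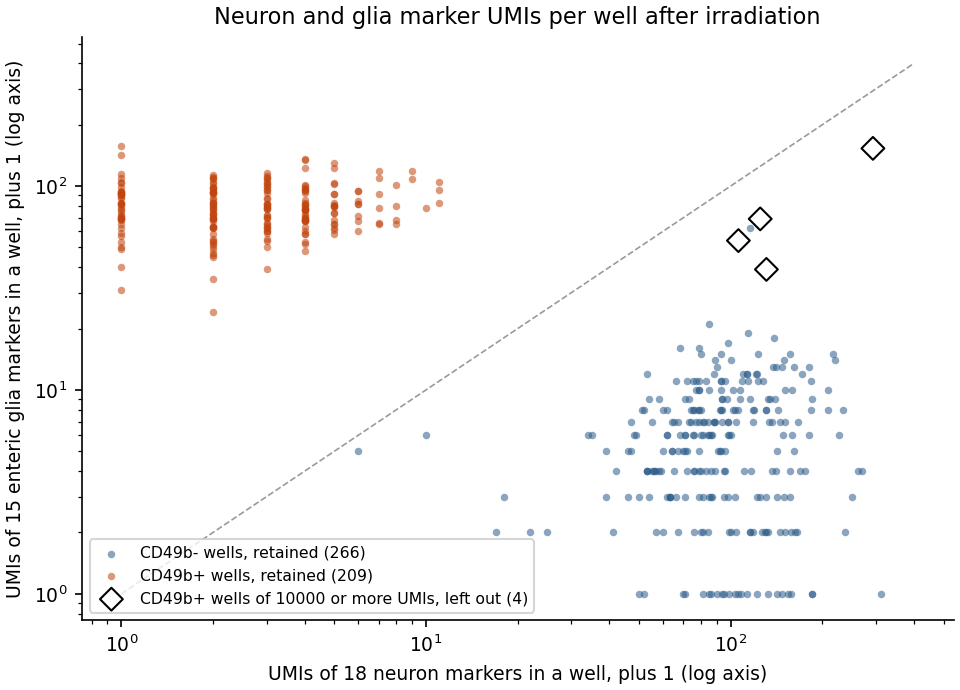
UMIs of 18 neuron markers (x) and 15 glia markers (y) in each well of the 6 irradiated plates, both plus 1 on log axes; the dashed line marks equal values. The 266 CD49b− and 209 CD49b+ wells lie on opposite sides of the line, and the 4 left-out CD49b+ wells lie on the CD49b− side.

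The upper limit on UMIs removed wells from 2 of the 3 CD49b+ plates. Replicate 1 lost 1 well, of 24748 UMIs, and replicate 2 lost 3, of 11627, 12699 and 13170 UMIs, while replicate 3 lost none. The highest retained CD49b+ well had 3851 UMIs, so no well lay near the limit; at the lower limit of 1000 the nearest CD49b+ wells held 1082 and 760 UMIs and the nearest CD49b− wells 1287 and 862. The left-out wells held 292 neuron and 152 glia marker UMIs on replicate 1, and 130 and 38, 105 and 53, and 124 and 68 on replicate 2. The retained wells of these plates carried transcripts that were abundant in the left-out wells of the same plate. Cartpt, a neuropeptide gene, had 480 UMIs in the left-out well of replicate 1 and 625 UMIs in the retained wells of that plate, where it was found in 68 of 68 wells, but 7 and 1 UMIs on the CD49b+ plates of replicates 2 and 3. Gal, the galanin gene, had 4643 UMIs in the left-out wells of replicate 2 and 1466 in that plate's retained wells (81 of 81 wells), against 5 and 3 UMIs on the other 2. The summed level of the 18 neuron markers was 1507, 719 and 538 CPM of all retained UMIs on the CD49b+ plates, and 539, 582 and 399.7 on those of homeostasis, against 12894, 13533 and 13844 on the CD49b− plates. The part of the left-out wells in the results below was not tested, and the main neuronal genes are given by plate.

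The gates differed across a large share of the transcriptome. Of 6576 genes tested with edgeR, with the mouse pool as a block, 1488 were higher (22.6%) and 1508 lower (22.9%) in CD49b+ cells at an adjusted p under 0.05 (called in what follows), together 45.6%. The median log2FC of all tested genes was −0.13, and 2958 of the 2996 called genes had the same sign in all 3 pools. At least 4-fold, 660 (10.0%) were higher and 735 (11.2%) lower. Plates of the gates did not overlap for 24.9% of the tested genes in the CD49b+ direction and for 30.6% in the other. The counts of list members below are to be read against the 22.6% and 22.9%. Genes were grouped by function into 62 lists of 1149 genes, of which 545 passed edgeR's filter on low counts and were tested. A gene silent in 1 gate could pass only through the other, so the counts over tested members describe the lists and do not test them. Members beyond those that the naming rule picked were chosen after their values were seen. The fits compare sums over the wells of a plate, in which fewer cells with a gene and fewer UMIs per cell cannot be told apart; shares of wells are given beside the sums for a few genes.

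**Figure D2:**
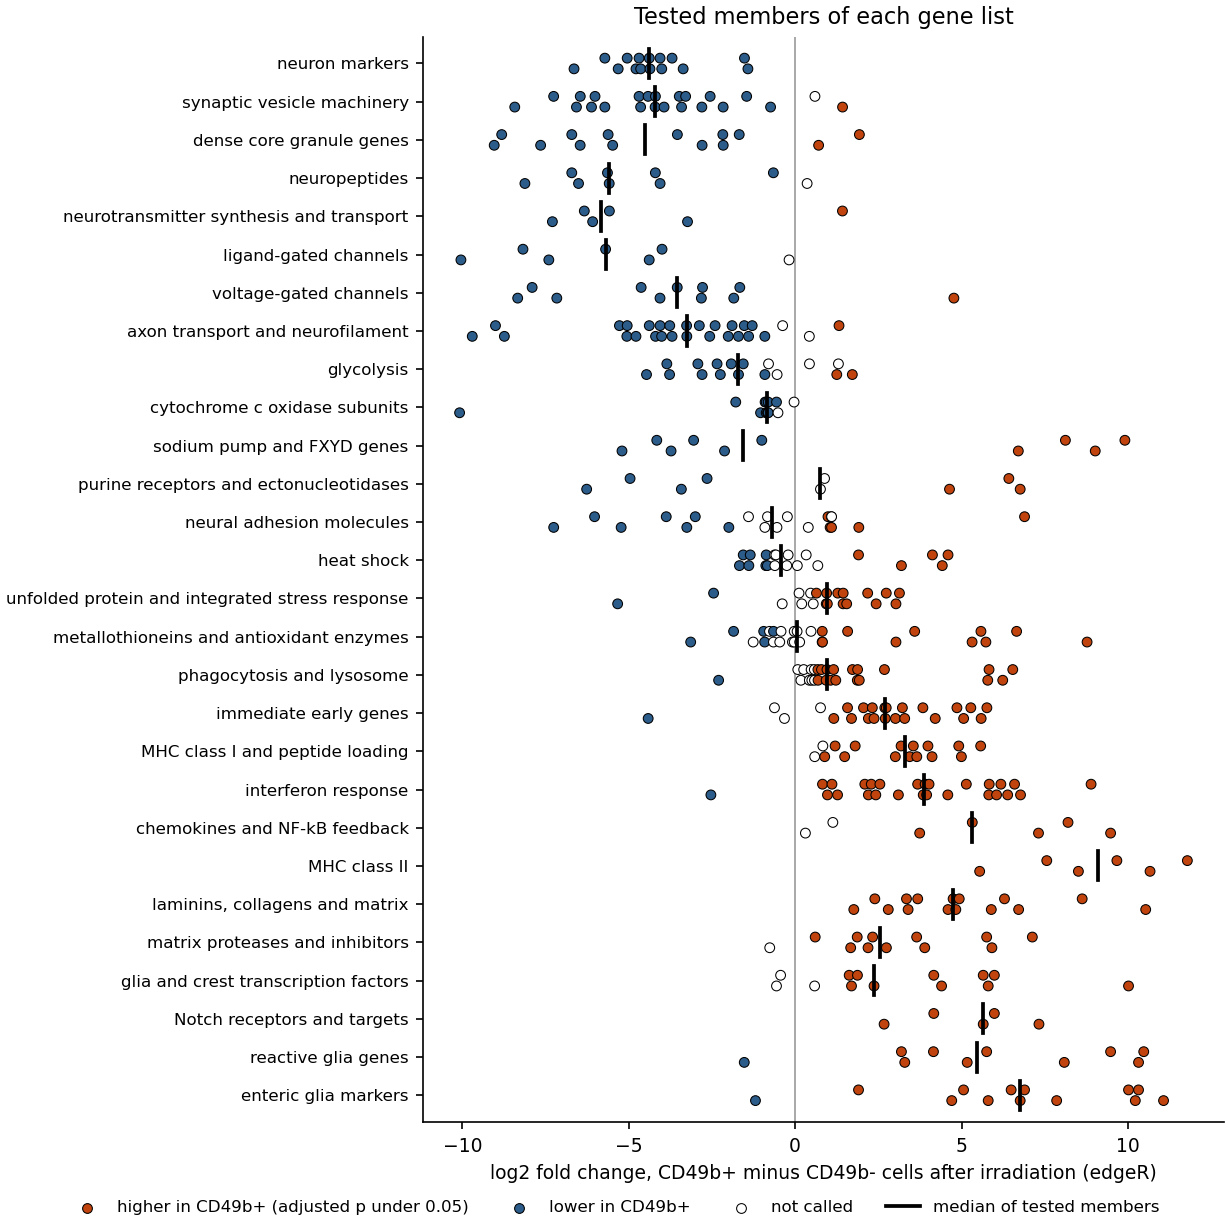
Fitted log2 fold change of each tested member of 28 gene lists, CD49b+ minus CD49b− cells after irradiation; each point is a gene, filled where called, and the bar is the median of the list. Neuronal lists lie to the left and glial, immune and matrix lists to the right, while the sodium pump, purine, heat shock and antioxidant lists hold called members on both sides; points of genes with 0 UMIs in a gate depend on the prior count of the fit.

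Enteric glia markers were higher in CD49b+ cells in 12 of 13 tested of 15 listed members, and 1 was lower (median log2FC 6.76). Apoe, a lipid carrier protein, stood at 32318, 30742 and 26802 CPM on the CD49b+ and at 29, 8.63 and 7.74 CPM on the CD49b− plates (log2FC 11.07 ± 0.41, adjusted p = 1.61e-12). S100b, which binds calcium in glia, was at 1431, 945 and 904 against 35.2, 43.1 and 41.8 CPM (log2FC 4.71 ± 0.26, adjusted p = 9.1e-11). The plates of the gates lay far apart for both genes. Sox10, the transcription factor that keeps glial identity, (chr15:79154908-79165240, minus strand, GRCm38) had 414, 362 and 267 CPM against 0 UMIs on all 3 CD49b− plates, at least 201-fold higher. Gfap, the intermediate filament of glia, had 492 UMIs against 1, a 1892-fold ratio, exact 95% counting interval 338 to 74879.5. Such ratios are over the counts of the 3 plates a gate, and their intervals, like the floor, cover counting error only. Ngfr, the low-affinity neurotrophin receptor, was the member that was lower, at 72.6, 79.2 and 59.2 against 139, 115 and 266 CPM (log2FC −1.19 ± 0.36, adjusted p = 0.0116). Without replicate 3 its log2FC was −0.73 (edgeR adjusted p = 0.19).

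Transcription factors of glia and neural crest were higher in 10 of 13 tested of 29 listed members and lower in none. The Notch pathway, which holds neural crest cells in a glial state through Hes and Hey repressors, was among the higher groups: of its receptors and targets all 5 tested of 12 listed passed in that direction (median log2FC 5.65, or 4.94 with the member that had 0 UMIs in a gate put at its bound). Hes1 stood at 1561, 1278 and 867 CPM on the CD49b+ and 29, 15.8 and 13.9 CPM on the CD49b− plates (log2FC 5.99 ± 0.27, adjusted p = 8.99e-12). Its relatives Hey2 and Hey1 had log2FC of 5.65 ± 0.50 and 4.17 ± 0.63, and the receptor gene Notch1 was at least 30.8-fold higher against 0 UMIs. The only tested ligand of the list, Dner, was at 0 UMIs on the CD49b+ plates, stood at 135, 141 and 121 CPM on the others and was at least 20.9-fold lower, so receptor and target transcripts stood in 1 gate and the Dner transcript in the other. Erbb3, the neuregulin receptor of glia, had 58 UMIs against 2 (a 112-fold ratio, counting interval 29.5 to 943), and so was higher, as was Ednrb, the endothelin receptor of crest cells (log2FC 3.66 ± 0.28). Ret, the signalling receptor for GDNF in neurons, stood at 29.1, 5.66 and 0 against 209, 237 and 263 CPM (log2FC −4.36 ± 0.53, adjusted p = 2.49e-06), or −6.22 without replicate 1, while Gfra1, a GDNF co-receptor, was higher in CD49b+ cells (log2FC 2.41 ± 0.32). Sfrp1, a secreted Wnt inhibitor, had 122 UMIs against 1, a 469-fold ratio, counting interval 82.6 to 18680.5.

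Neuron fate factors were mostly lower in CD49b+ cells. Of 12 tested of 29 listed members, 8 were lower and 2 higher, against 22.9% and 22.6% of all tested genes. Hand2, a factor needed for enteric neurons, stood at 298, 317 and 399.9 CPM on the CD49b+ and 128, 104 and 119 on the CD49b− plates (log2FC 1.53 ± 0.25, adjusted p = 7.53e-05), and Tbx3 at 261, 288 and 193 against 132, 127 and 186 CPM (log2FC 0.76 ± 0.28, adjusted p = 0.0345). The call for Tbx3 was lost without replicate 1 or 2 (log2FC 0.59 and 0.49) and with wells thinned to 1000 UMIs (log2FC 0.25). It was also lost with DESeq2, with no filter on low counts and without the upper UMI limit. Rbfox1, a splicing factor of neurons, was at 0 UMIs on all CD49b+ plates and at least 9.36-fold lower. Hoxb5, which patterns the gut's crest cells, had a log2FC of −2.79 ± 0.28.

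Neuron markers were lower in CD49b+ cells in all 15 tested of 18 listed members, and so was most of the machinery of transmission. The median log2FC of the markers was −4.38, and −5.85 without replicate 1. Synaptic vesicle genes were lower in 21 of 23 tested of 28 listed members and higher in 1. Snap25, a SNARE protein of vesicle fusion, stood at 72.6, 22.6 and 0 CPM on the CD49b+ and 1503, 1786 and 1591 CPM on the CD49b− plates (log2FC −5.72 ± 0.42, adjusted p = 3.19e-09). The CD49b+ plate at 0 was that of replicate 3, which had no left-out well, and without replicate 1 the log2FC was −7.11. Elavl4, an RNA-binding protein of neurons, had 5 UMIs over the 3 CD49b+ plates against 2082 (log2FC −6.64 ± 0.40, adjusted p = 2.18e-10; −7.26 without replicate 2). The exception was Syngr1, synaptogyrin, a vesicle membrane protein, at 501, 351 and 333 against 182, 111 and 150.2 CPM (log2FC 1.43 ± 0.24, adjusted p = 8.99e-05). Dense core granule genes, whose products sort and cut peptide hormones, were lower in 12 of 14 tested of 16 listed members (median −4.51, or −3.45 with 3 members at their bounds). The exceptions were Cpe, carboxypeptidase E, at 2919.5, 2715 and 2511 against 778, 670.2 and 688 CPM (log2FC 1.93 ± 0.21, adjusted p = 4.72e-07), and Scg3, a granin (log2FC 0.71 ± 0.22). The Scg3 call was lost without replicate 2 or 3 and with wells thinned to 1000 UMIs (log2FC 0.66). DESeq2, no filter on low counts and no upper UMI limit ended it too. Axon transport and neurofilament genes were lower in 25 of 28 tested of 32 listed members and higher in 1, Stmn1, a microtubule-destabilising protein (log2FC 1.32 ± 0.26).

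Genes of transmitter synthesis and transport were lower in 5 of 6 tested of 17 listed members, and 1 was higher. Nos1, the nitric oxide synthase of inhibitory motor neurons, had 3 UMIs in the CD49b+ and 2010 in the CD49b− gate, a 174-fold ratio of CD49b− to CD49b+ cells, counting interval 59.5 to 846. Slc18a3, the vesicular acetylcholine transporter, had 2 UMIs against 585. Slc18a2, the vesicular monoamine transporter, was higher in CD49b+ cells at 87.2, 221 and 141 against 49.7, 48.9 and 66.6 CPM (log2FC 1.42 ± 0.37, adjusted p = 0.00423), and without replicate 2 its log2FC was 0.92 (adjusted p = 0.181). Neuropeptide genes were lower in 8 of 9 tested of 20 listed members and higher in none; 5 were lower without the pool block, and without replicate 2 there were 9 lower and 1 higher of 10 tested. Vip, the vasoactive peptide of inhibitory neurons, had 2 UMIs against 2509 (a 326-fold ratio of CD49b− to CD49b+ cells, counting interval 90.2 to 2695). Gal stood at 36.3, 8292 and 22.2 CPM on the CD49b+ plates against 38029, 12320.2 and 13302 (log2FC −6.51 ± 1.41, adjusted p = 0.00101), and Cartpt at 4539, 39.6 and 7.41 against 5078, 2599 and 6493 (log2FC −4.20 ± 1.0, adjusted p = 0.00226). The high CD49b+ values were those of the plates whose left-out wells held the same transcript, and the Cartpt plates of the gates overlapped. Leaving out a replicate put Gal between −9.73 and −3.55 and Cartpt between −7.37 and −2.33. Without the pool block neither passed (log2FC −2.92 and −1.63). Grp was not called (log2FC 0.36 ± 0.80); 125 of its 126 CD49b+ UMIs lay on the plate of replicate 1.

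Receptors and channels were split between the gates. Of receptors coupled to G proteins, 10 tested of 36 listed members, 6 passed as higher and 4 as lower in CD49b+ cells. S1pr3 and Lpar1, receptors for the lipids sphingosine-1-phosphate and lysophosphatidic acid, were higher at least 268-fold (0 UMIs on CD49b− plates) and by a 509-fold ratio, counting interval 173 to 2478. Gpr37l1, an orphan receptor of glia, had a log2FC of 4.75 ± 0.28. Ramp1, part of the receptor for the peptide CGRP, stood at 1264, 939 and 867 against 344, 295 and 299 CPM (log2FC 1.70 ± 0.20, adjusted p = 1.96e-06). The muscarinic receptors Chrm1 and Chrm2, the opioid receptor Oprk1 and the PACAP receptor Adcyap1r1 were lower, the last with 0 UMIs (at least 13.9-fold lower). Ligand-gated channels were lower in 6 of 7 tested of 19 listed members (median −5.70, or −4.00 with 3 members at their bounds), led by Chrna3, a subunit of ganglionic nicotinic receptors, with 0 against 649 UMIs (at least 56.3-fold lower). Voltage-gated channels were lower in 10 of 11 tested of 30 listed members (median −3.54, or −2.86 with 3 at their bounds). The exception, Scn7a, an atypical sodium channel of glia, stood at 269, 543 and 429.6 against 18.6, 15.8 and 10.8 CPM (log2FC 4.77 ± 0.34, adjusted p = 2.62e-09).

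In 2 families with parallel forms the gates held different members. The sodium pump is a pair of a catalytic alpha and a beta subunit, tuned by a small FXYD protein. Of 10 tested of 12 listed members, 4 passed as higher and 6 as lower in CD49b+ cells. Atp1b2, a beta subunit, stood at 465, 701 and 607 against 4.14, 7.19 and 4.65 CPM (log2FC 6.71 ± 0.34, adjusted p = 3.28e-11), and Fxyd1 at 8541, 5509 and 6021 against 29, 17.3 and 24.8 CPM (log2FC 8.12 ± 0.30, adjusted p = 1.61e-12). Fxyd3 was at least 185-fold higher. The beta subunits Atp1b1 (log2FC −4.16 ± 0.35) and Atp1b3 (log2FC −1.0 ± 0.33) were lower, as were Fxyd5 (log2FC −3.73 ± 0.53), Fxyd6 (log2FC −5.20 ± 0.44, or −6.12 without replicate 2) and Fxyd7 (log2FC −2.12 ± 0.27). ATP is a signal between enteric neurons and glia, and the enzymes that break it down outside the cell were split too: of purine receptors and ectonucleotidases, 9 tested of 23 listed members, 3 were higher and 4 lower. Entpd2 stood at 472, 509 and 489 against 0, 0 and 12.4 CPM (log2FC 6.76 ± 0.50, adjusted p = 3.76e-09; log2FC 10.52 without replicate 3), whereas Entpd3 had 1 UMI on the CD49b+ plates against 367, a 95.4-fold ratio of CD49b− to CD49b+ cells, counting interval 17 to 3779.7. Enpp2, which makes lysophosphatidic acid, was higher (log2FC 6.42 ± 0.45, or 7.79 without replicate 3) and Enpp1 lower, with 2 UMIs against 94. Of the ATP receptors, P2rx7 was higher (log2FC 4.64 ± 0.67, or 5.55 without replicate 3), P2rx2 (log2FC −2.65 ± 0.46) and P2ry6 (1 UMI against 144) were lower, and P2rx4 did not pass (log2FC 0.76 ± 0.45). Kcnj10, the potassium channel by which glia buffer potassium, was at least 61.5-fold higher.

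**Figure D3:**
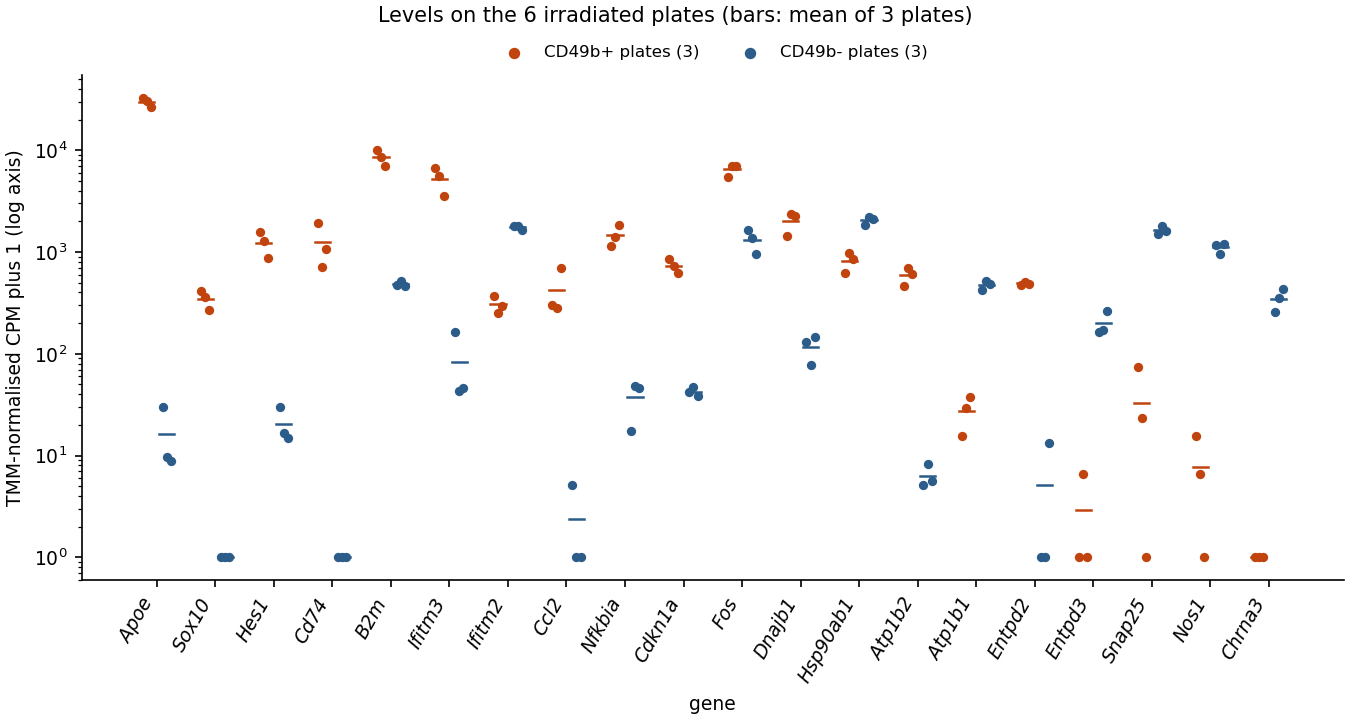
TMM-normalised CPM plus 1 (log axis) of 20 genes on the 3 CD49b+ and 3 CD49b− plates after irradiation; each point is a plate and the bar the mean of 3. The plates of the gates do not overlap for any gene shown, and Sox10, Cd74 and Chrna3 have 0 UMIs on all 3 plates of one gate.

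Antigen presentation genes were higher in CD49b+ cells. MHC class II molecules show peptides to helper T cells, and the invariant chain Cd74 guides them. Of class II genes all 6 tested of 10 listed were higher (median log2FC 9.09, or 8.97 with Cd74 at its bound). Cd74 stood at 1946, 718 and 1066 CPM on the CD49b+ plates and had 0 UMIs on the CD49b− plates, at least 691-fold higher. H2-Ab1 stood at 4416, 1578 and 1437 CPM against 2 UMIs (a 2078-fold ratio, counting interval 574 to 17185), and H2-Eb1 at 1627, 713 and 644 against 2.07, 1.44 and 3.1 CPM (log2FC 8.51 ± 0.37, adjusted p = 7.44e-12). For these 3 the plate of replicate 1 was the highest. Of class I and peptide loading genes, 16 tested of 20 listed members, 14 were higher and none was lower. B2m, the light chain of class I, stood at 9949.7, 8529.8 and 6969 against 472, 523 and 458 CPM (log2FC 4.11 ± 0.25, adjusted p = 2.21e-10), and H2-K1, a class I heavy chain, at 3108, 2381 and 1903 against 161, 132 and 163 (log2FC 3.99 ± 0.24, adjusted p = 2.24e-10). The immunoproteasome subunits Psmb8, Psmb9 and Psmb10, which cut peptides for class I, had log2FC of 3.18 ± 0.27, 3.44 ± 0.37 and 1.20 ± 0.24. Psme1 and Tapbpl did not pass (log2FC 0.59 ± 0.28 and 0.83 ± 0.51). H2-Q6 and H2-T22 share 50.3% and 51% of their 31-base words (all stretches of 31 bases in their transcripts) with other gene models, so their own share of the counts is uncertain.

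Cd74 UMIs were found in 69.9% of CD49b+ wells, and in 51.7% when each well was thinned to 1000 UMIs. B2m was found in 100% of CD49b+ wells at either depth. In CD49b− wells Cd74 was found in 0 of 266, where 3 of 266 wells would be 1.13%. That value takes the wells as independent and leaves out variation between the 3 pools of mice. It also sets no limit on cells whose Cd74 RNA was not captured. B2m was found in 86.5% of CD49b− wells (28.9% thinned). Macrophages and lymphocytes also carry class II, so their markers are given beside these values. Of 14 macrophage markers 10 were at 0 UMIs on the CD49b+ plates, Adgre1, Csf1r and Ptprc among them, and their summed level was 12.5, 9.72 and 6.64 CPM of all retained UMIs, against 49.8, 31 and 47 on the CD49b− plates, where Adgre1 had 63 UMIs. All 8 lymphocyte markers were at 0 on the CD49b+ plates.

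Interferon response genes were higher in 25 of 26 tested of 37 listed members and lower in 1 (median log2FC 3.88). Ifitm3, a membrane protein that blocks virus entry (chr7:141009586-141010770, minus strand), stood at 6645, 5560.2 and 3510.5 CPM on the CD49b+ and 161, 41.7 and 44.9 on the CD49b− plates (log2FC 6.18 ± 0.33, adjusted p = 4.35e-11). Its neighbour Ifitm2 (chr7:140954837-140955987, minus strand) went the other way, at 370.4, 249 and 296 against 1793, 1800.5 and 1643 CPM (log2FC −2.53 ± 0.23, adjusted p = 5.11e-08), and neither gene's plates overlapped between gates. Of the 31-base words of Ifitm2, 55.5% also occur in another gene model, and 20.5% of those of Ifitm3. Isg15, a ubiquitin-like modifier, had a mean of 390.4 against 4.4 CPM (log2FC 6.39 ± 0.40, adjusted p = 3.66e-10), and Zbp1, a sensor of nucleic acids, was at least 93.6-fold higher. The guanylate-binding protein Gbp2 and the interferon-inducible GTPases Iigp1 and Igtp had log2FC of 6.59 ± 0.54, 6.05 ± 0.51 and 3.10 ± 0.30. Of the pathway's signal carriers, higher members were Stat2 (log2FC 2.29 ± 0.44), Irf1 (log2FC 4.02 ± 0.36) and Irf9 (log2FC 1.11 ± 0.39). Of the receptor for interferon gamma, Ifngr1 was higher at a mean of 228 against 28.1 CPM (log2FC 3.05 ± 0.36) and Ifngr2 lower at 16.8 against 64.6 (log2FC −1.89 ± 0.56); the Ifngr2 log2FC was −2.52 without replicate 2 and its call was lost without replicate 3 (log2FC −1.72).

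The promoters of these genes were searched for the interferon-stimulated response element (ISRE), on either strand of the 250 bases before the RefSeq start. The ISRE was taken as GAAA and, after any 2 bases, GAAA again. It was found for 12 of the 19 tested interferon genes with a promoter in the RefSeq table (GRCm38.p6), against 3.46% of all 27025 genes in that table. That list was made of interferon response genes and nearly all its tested members were higher. The share therefore describes the list and not the gate difference. The ISRE was also found for B2m, H2-T22 and H2-T23 of 15 class I genes, for Cxcl10 of 4 chemokine and NF-kB genes, and for none of 4 class II genes. Ifitm2, the member that was lower, holds a match too, so these letters were present on both sides of the gate difference. Matches are shown 5′ to 3′ on the strand of the gene, from 4 genes that were higher and from Ifitm2. Capitals mark the first match from the 5′ end. The stretches of Isg15 and Gbp3 each hold a further match, which overlaps the capitals and is left in lower case beyond them.
Isg15: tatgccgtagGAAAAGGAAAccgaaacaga
Gbp3: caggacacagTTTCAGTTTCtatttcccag
Cxcl10: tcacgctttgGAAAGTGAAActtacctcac
B2m: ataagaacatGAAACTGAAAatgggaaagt
Ifitm2: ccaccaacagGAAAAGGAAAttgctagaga
They lie at chr4:156200877-156200906, minus strand (Isg15), chr3:142559989-142560018, plus strand (Gbp3), chr5:92349083-92349112, minus strand (Cxcl10), chr2:122147538-122147567, plus strand (B2m) and chr7:140955988-140956017, minus strand (Ifitm2), all upstream of the annotated start. The Gbp3 match is on the strand opposite to the gene and so reads as its reverse complement. The first base in capitals is 78, 45, 213, 139 and 46 bases before the start. A match to these letters is a description and not a binding site. The NF-kB letters, GGG and, after any 2 bases, TTTCC, searched in the same way, were in 1.65% of all promoters, and in those of B2m, H2-Q4 and Nfkbia. The cyclic AMP response element TGACGTCA and the heat shock element, GAA, TTC and GAA each 2 bases apart, were in 3 of 20 immediate early genes (Btg2, Dusp1 and Maff) and 2 of 15 heat shock genes (Hspd1 and Hspe1), against 1.77% and 0.514% of all promoters.

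Chemokine and NF-kB genes were higher in 5 of 7 tested of 25 listed members and lower in none, and in 8 of the 10 tested without replicate 1. NF-kB is the transcription factor behind many cytokine genes, and its inhibitor Nfkbia is 1 of its own targets. Nfkbia stood at 1155, 1391 and 1837 against 16.6, 47.5 and 44.9 CPM (log2FC 5.32 ± 0.27, adjusted p = 3.28e-11). Vcam1, an adhesion molecule that holds leukocytes, stood at 639, 577 and 533 against 6.21, 1.44 and 3.1 CPM (log2FC 7.31 ± 0.38, adjusted p = 3.75e-11). Ccl2, which attracts monocytes, had 185 UMIs against 2 (a 356-fold ratio, counting interval 97.1 to 2959), and Cxcl10, which attracts T cells, was at least 137-fold higher against 0 UMIs. Ccl2 was found in 20.6% of CD49b+ wells (12.4% thinned) and in 0.752% of CD49b− wells (0% thinned). Of cytokine and complement genes, 8 tested of 31 listed members, 6 were higher and 1, Ifngr2, lower. The complement inhibitor Cd59a stood at 1663, 1488 and 1178 against 49.7, 60.4 and 54.2 CPM (log2FC 4.69 ± 0.24, adjusted p = 3.75e-11), and complement component C4b had 189 UMIs against 1 (a 727-fold ratio, counting interval 129 to 28857), though 48.3% of its words are shared with C4a. Tgfb2, a growth factor, had a log2FC of 4.19 ± 0.32. Reactive glia genes, known to rise in injured astrocytes, were higher in 9 of 10 tested of 21 listed members, among them Serpina3n, a protease inhibitor, at 1939, 1731 and 1370.1 against 39.3, 25.9 and 27.9 CPM (log2FC 5.76 ± 0.26, adjusted p = 8.99e-12), and Vim, an intermediate filament (log2FC 4.16 ± 0.23). S100a10, an annexin partner, was lower (log2FC −1.53 ± 0.24).

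Immediate early genes, which are switched on within minutes by stimulation and also by tissue dissociation, were higher in CD49b+ cells in 20 of 24 tested of 28 listed members and lower in 1 (median log2FC 2.70). Fos, a subunit of the AP-1 factor, stood at 5512, 6957 and 6954 against 1633, 1376 and 953 CPM (log2FC 2.32 ± 0.25, adjusted p = 5e-07), Zfp36, an mRNA decay factor, at 3994, 3795 and 3585 against 143, 134 and 115 (log2FC 4.86 ± 0.24, adjusted p = 2.29e-11), and Junb at 4278, 3185 and 2614 against 623, 272 and 395 (log2FC 3.01 ± 0.24, adjusted p = 8.6e-09). Nr4a1, Klf2 and Socs3 had log2FC of 5.76 ± 0.26, 5.59 ± 0.32 and 5.06 ± 0.27. Arc, an early gene of active neurons, was the exception, with 1 UMI on the CD49b+ plates against 98 (a 25.5-fold ratio of CD49b− to CD49b+ cells, counting interval 4.47 to 1017). Dusp1, a phosphatase that ends kinase signalling, did not pass at 1162, 679 and 785 against 1671, 716 and 1002 CPM (log2FC −0.32 ± 0.21, adjusted p = 0.216).

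Chaperones were called in both directions. Of 20 heat shock genes, all tested, 5 passed as higher in CD49b+ cells and 7 as lower, against 22.6% and 22.9% of all tested genes. Those higher were the stress-inducible Hspa1a (log2FC 4.42 ± 0.34), Hspa1b (log2FC 4.59 ± 0.45), the co-chaperone Dnajb1 and the small heat shock proteins Hspb1 and Cryab. Dnajb1 stood at 1438, 2359 and 2266 against 128, 76.2 and 146 CPM (log2FC 4.13 ± 0.28, adjusted p = 8.65e-10) and Hspb1 at 1046, 1041 and 1185 against 112, 109 and 136 (log2FC 3.19 ± 0.22, adjusted p = 1.16e-09). Reads of Hspa1a and Hspa1b cannot be told apart over 65.4% and 68% of their words, and 52.3% of those of Hspb1 and 43.5% of those of Hspa8 also occur in other models, so these counts are uncertain too. Lower were the chaperones Hspa8, at 1649, 1878 and 2192 against 2888, 3629.8 and 3944 CPM (log2FC −0.87 ± 0.21, adjusted p = 0.00242), Hsp90ab1 (log2FC −1.35 ± 0.21), Hsp90aa1 (log2FC −1.56 ± 0.23), Dnaja1 (log2FC −0.84 ± 0.24), Hspd1 (log2FC −0.88 ± 0.31), Hspa4l (log2FC −1.39 ± 0.47) and Hspb8 (log2FC −1.67 ± 0.29). Genes of the unfolded protein and integrated stress response were higher in 13 of 20 tested of 25 listed members and lower in 2. Hspa5, the main chaperone of the endoplasmic reticulum, stood at 886, 1663 and 1918 against 445, 492 and 658 CPM (log2FC 1.44 ± 0.22, adjusted p = 2.68e-05). Asns, asparagine synthetase, a target of the amino acid branch, was lower with 2 UMIs against 356 (a 46.3-fold ratio of CD49b− to CD49b+ cells, counting interval 12.7 to 384), while Ddit3 of the same branch did not pass (log2FC 0.12 ± 0.44). Of metallothioneins and antioxidant enzymes, 27 tested of 31 listed members, 11 were higher and 5 lower, or 8 and 3 without replicate 2 or without replicate 3. The metal-binding Mt1 and Mt2 stood at 8018, 5724 and 7058 against 229.8, 142 and 155 CPM (log2FC 5.32 ± 0.26, adjusted p = 1.78e-11) and at 1227, 1471 and 1503 against 14.5, 17.3 and 9.29 (log2FC 6.66 ± 0.29, adjusted p = 7.1e-12). Mt3 did not pass (log2FC 0.14 ± 0.31), Cat, catalase, was higher (log2FC 1.58 ± 0.51), and the peroxiredoxins Prdx2 (log2FC −0.65 ± 0.24) and Prdx3 (log2FC −0.94 ± 0.37) were lower.

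Radiation breaks DNA, and p53 then switches on genes that halt the cell cycle or start apoptosis. Of p53 targets, 10 tested of 29 listed members, 4 were higher in CD49b+ cells and none was lower. Cdkn1a, an inhibitor of the cell cycle, stood at 849.7, 724 and 615 against 41.4, 46 and 37.2 CPM (log2FC 4.11 ± 0.25, adjusted p = 3.08e-10), and Btg2 at 3689, 2760.3 and 2762 against 433, 269 and 296 (log2FC 3.22 ± 0.22, adjusted p = 1.12e-09). Gadd45a (log2FC 1.62 ± 0.40) and the death receptor Fas (24 UMIs against 1) were also higher. Bax, a pore-forming death protein, stood at 247, 141 and 178 against 116, 134 and 150.2 CPM and did not pass (log2FC 0.47 ± 0.29, adjusted p = 0.201), and neither did Phlda3 (log2FC 0.15 ± 0.43), Zmat3 (log2FC −0.44 ± 0.51), Sesn1 (log2FC 0.67 ± 0.48), Ei24 (log2FC −0.02 ± 0.45) or Plk2 (log2FC −0.93 ± 0.45). Both gates were irradiated, so these values compare the gates and not irradiation with its absence; the gate difference of Cdkn1a was 3.21 on the homeostasis plates and that of Btg2 2.39. Of DNA repair genes, 12 tested of 32 listed members, 2 were higher, 1 was lower and 9 were not called. This is set against 22.6% higher and 22.9% lower of all tested genes. Trp53, the p53 gene (log2FC 1.29 ± 0.44), and the damage-marking histone H2afx (log2FC 1.70 ± 0.52) were higher. Atm, the kinase that senses breaks, was lower (log2FC −2.40 ± 0.71), with 4 UMIs against 87. The log2FC of Atm was −2.99 without replicate 1, and its call was lost without replicate 3. Of apoptosis genes, 10 tested of 27 listed members, 3 were higher, 2 lower and 5 not called, which is near the same shares of all tested genes. Higher were the survival factors Bcl2 (log2FC 2.40 ± 0.40) and Mcl1 (log2FC 2.5 ± 0.39) and the protease Casp6 (log2FC 3.03 ± 0.56). Lower were cytochrome c, Cycs (log2FC −1.38 ± 0.37), and Diablo (log2FC −1.98 ± 0.29), both released by mitochondria in apoptosis. Cell cycle genes were higher in 4 of 7 tested of 31 listed members and lower in none. Ccnd2, a cyclin of early cycle, stood at 574, 566 and 511 against 16.6, 2.88 and 10.8 CPM (log2FC 5.82 ± 0.37, adjusted p = 3.66e-10), while Mki67 and Top2a, marks of dividing cells, were too low to be tested.

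Matrix genes were higher in CD49b+ cells without exception among those tested: all 15 tested of 32 listed laminins, collagens and matrix proteins passed in that direction (median log2FC 4.75). Sparc, a matrix-binding glycoprotein, stood at 3544, 3892 and 3614 against 141, 135 and 135 CPM (log2FC 4.75 ± 0.24, adjusted p = 2.91e-11). Col12a1, a collagen of fibril surfaces, had 494, 390.3 and 592 CPM against 0 UMIs, at least 278-fold higher, and Col18a1, a basement membrane collagen, had a log2FC of 5.89 ± 0.37 (6.51 without replicate 2). Matrix proteases and their inhibitors were higher in 11 of 12 tested of 20 listed members, with Cst3, cystatin C, at 8178, 7483 and 6599 against 1586, 1373 and 1461 CPM (log2FC 2.33 ± 0.22, adjusted p = 1.19e-07) and Mmp17 and Timp3 at 5.91 ± 0.62 and 3.65 ± 0.41. Fibroblasts also make matrix: their 9 markers summed to 144, 97.2 and 126 CPM of all retained UMIs on the CD49b+ plates, where Dcn was at 0, and to 20.3, 2.7 and 308 on the CD49b− plates, where Dcn had 136 UMIs, 129 of them on replicate 3. Itgav, an integrin chain that binds matrix, was higher (log2FC 5.79 ± 0.62), and Itgb1, the partner chain of CD49b, did not pass (log2FC 0.31 ± 0.30). Phagocytosis and lysosome genes were higher in 17 of 26 tested of 33 listed members and lower in 1 (11 and 1 without replicate 1), with the engulfment receptor Axl (58 UMIs against 2) and its bridging ligand Pros1 (log2FC 6.24 ± 0.57) higher and the other ligand, Gas6, lower (log2FC −2.30 ± 0.58). Of neural adhesion molecules, 20 tested of 25 listed members, 6 were higher and 7 lower, against 22.6% and 22.9% of all tested genes. Ncam1 (log2FC 1.05 ± 0.20) and Chl1 (log2FC 1.91 ± 0.26) were higher, and Cadm1 (log2FC −1.99 ± 0.24) and Thy1 (log2FC −3.87 ± 0.56) lower.

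Genes of glycolysis were lower in CD49b+ cells in 11 of 17 tested of 23 listed members and higher in 2 (median log2FC −1.70). Aldoa, the aldolase of most tissues, stood at 1365, 939 and 837 against 3793, 3702 and 4171 CPM (log2FC −1.92 ± 0.23, adjusted p = 2.17e-06), whereas Aldoc, the aldolase of brain glia, was higher at 378, 362 and 370.3 against 161, 168 and 136 (log2FC 1.25 ± 0.24, adjusted p = 0.0003). The subunits of lactate dehydrogenase parted in the same way, Ldha lower (log2FC −2.92 ± 0.25) and Ldhb higher (log2FC 1.72 ± 0.24), with 33% of the words of Ldhb shared with other models. The glucose transporter Slc2a3 of neurons was lower (3 UMIs against 286) and Slc2a1 did not pass (log2FC 1.30 ± 0.61). Cytochrome c oxidase subunits encoded in the nucleus were lower in 10 of 12 tested of 16 listed members (median log2FC −0.85), and 1 of 8 tested mitochondrially encoded transcripts was called in each direction, mt-Co1 higher (log2FC 0.65 ± 0.20) and mt-Nd6 lower (log2FC −0.82 ± 0.20). mt-Cytb stood at 6195, 4548 and 4532 against 5074, 4211 and 4799 CPM (log2FC 0.11 ± 0.22, adjusted p = 0.714). Cholesterol synthesis genes passed in 2 of 18 tested of 22 listed members, both lower: Fdft1, squalene synthase (log2FC −2.03 ± 0.35), and Msmo1 (log2FC −0.90 ± 0.28), the latter lost without replicate 2 or 3. On the homeostasis plates 13 of 18 were lower; whether this list differs between the treatments was not tested as a list, and none of its members was called for the difference. Lipid carriers were higher in 7 of 15 tested of 25 listed members and lower in 1, Fabp3, with Apod at 1576, 1844 and 1689 against 20.7, 17.3 and 10.8 CPM (log2FC 6.71 ± 0.29, adjusted p = 6.79e-12) and Dbi, a carrier of acyl-CoA, at 5505, 5741 and 4725 against 169.8, 183 and 197 (log2FC 4.86 ± 0.25, adjusted p = 3.75e-11).

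A few genes differed little between the gates. For 20 of the 6576 tested genes the 95% interval of the log2FC lay between −0.5 and 0.5. Among those with the highest levels were the ribosomal genes Rpl41, Rps14 and Rpl13, the actin-binding Pfn1, the cytochrome oxidase subunit Cox6c, and Crip2, Selenok, S100a16 and Tmem176b. Gm28437, the other of the 10 highest, shares all its 31-base words with mt-Co3. Rpl41 stood at 1569, 2279.5 and 1933 CPM on the CD49b+ and 1793, 1995 and 1848 on the CD49b− plates (log2FC 0.02 ± 0.21, adjusted p = 0.939).

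Outside the lists, the 10 largest log2FC toward CD49b+ cells included that of Sostdc1, a secreted antagonist of BMP and Wnt, with 668, 458 and 229.6 CPM against 0 UMIs (at least 261-fold higher). Sdc4, a syndecan, a heparan sulfate carrier of the cell surface, had 665 UMIs against 2 (a 1279-fold ratio, counting interval 353 to 10579.9), and Fam107a, an actin-binding stress protein, was higher at least 174-fold. Fcgr2b, an inhibitory receptor for antibodies, had 239.7, 238 and 222 CPM against 0 UMIs (at least 135-fold higher). The others were the collagens Col9a2 and Col11a1, the sulfatase Sulf1, the protease Tmprss5, Fstl4, and Tgtp2, an interferon-inducible GTPase whose words are 90.5% shared with Tgtp1. The 10 toward CD49b− cells each had 0 UMIs on all 3 CD49b+ plates. Bglap, osteocalcin, stood at 1613, 1287 and 1779.8 CPM on the CD49b− plates (at least 245-fold above the floor of the CD49b+ plates); 62.9% of its words occur in Bglap3 or other models, and 95.2% of those of Bglap2. Tagln3, a calponin-like protein of neurons (at least 73.6-fold), Rgs4, a brake on G protein signalling (at least 46.9-fold), and Rit2, a small GTPase of neurons (at least 32.2-fold), were among the rest, with Ly6c1, Sult4a1, Ociad2, Vstm2l and Gpr22.

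The same comparison on the homeostasis plates, which share no mice with these, gave 1807 higher (25.6%) and 1870 lower (26.5%) of 7051 tested genes. Of 6139 genes tested in both treatments 2464 were called in both with the same direction, which is 88.3% of the 2792 called after irradiation and 75.8% of the 3250 called in homeostasis. Median log2FC after irradiation and in homeostasis were 9.09 and 8.06 for class II genes, 3.88 and 3.30 for interferon genes, 2.70 and 2.22 for immediate early genes, and −4.38 and −6.69 for neuron markers. The difference itself was tested as the interaction of gate and treatment over all 12 plates, which called 2 of 8230 genes (0.0243%), both less low in CD49b+ cells after irradiation, and 0 in the other direction. At an unadjusted p under 0.05 there were 390 of the 8230, of which 152 in the other direction. This is not above the share of 0.05 that tests without any difference would give. DESeq2 called 0 (150 and 44 at an unadjusted p under 0.05). On simulated counts of this size the interaction test found 40 of 100 genes that had been changed 4-fold, and 4 of the 100 with a 2-fold change, with 5 false calls. Apart from those changes each simulated gene had the same level on all plates, unlike the real genes. The simulated counts therefore cannot tell whether the 2 genes called here are false calls. H2-Eb1, with gate differences (log2FC) of 8.51 and 7.48, and Serpina3n, with 5.76 and 3.78, were not called for the difference (edgeR adjusted p = 1 and 0.361).

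**Figure D4:**
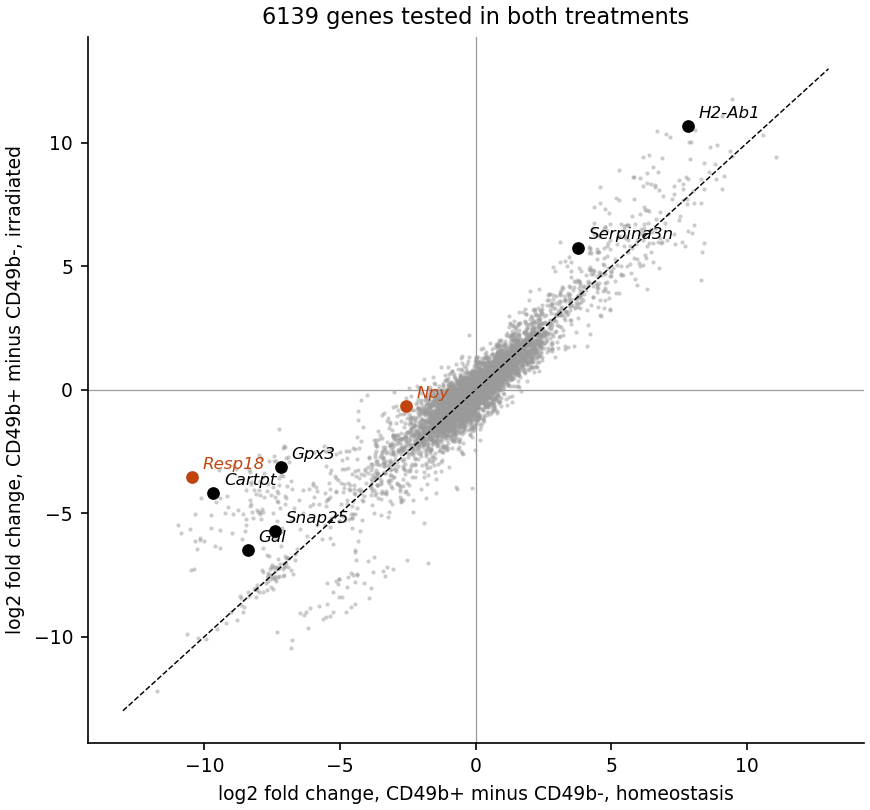
Fitted log2 fold change of CD49b+ minus CD49b− cells in homeostasis (x) and after irradiation (y) for the 6139 genes tested in both; each grey point is a gene, the dashed line marks equal values, and Resp18 and Npy, the 2 genes called for the difference, are in colour. Most points follow the line; for genes with few or 0 UMIs in a gate the fitted value depends on the prior count.

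Resp18, a protein of neuroendocrine granules (chr1:75272199-75278415, minus strand, GRCm38), stood at 668, 351 and 0 CPM on the irradiated CD49b+ plates against 3519, 2788 and 3031 on the CD49b− plates (log2FC −3.54 ± 0.52, adjusted p = 2.26e-05), and leaving out a replicate put the log2FC between −4.29 and −2.70. DESeq2 did not call it (log2FC −4.22, adjusted p = 0.0698). In homeostasis it had 1 UMI over the 3 CD49b+ plates. Its 3 irradiated CD49b+ plates held 92, 62 and 0 UMIs, and the left-out wells of replicates 1 and 2 held 95 and 200, so the plate without a left-out well was the one without Resp18. Gpx3, a secreted antioxidant enzyme, followed the same order with 41, 9 and 0 UMIs on the plates and 64 and 60 in the left-out wells, with a gate log2FC of −3.14 (−5.01 without replicate 1). Without the upper UMI limit its gate call was lost (log2FC −1.71, adjusted p = 0.0753). Gpx3 was not called for the difference (adjusted p = 0.361). Npy, neuropeptide Y (chr6:49822710-49829507, plus strand), did not follow this order: it had 1 and 0 UMIs in the left-out wells of replicates 1 and 2, and 88, 138 and 58 UMIs in the retained wells of the 3 irradiated CD49b+ plates, in 39 of 68, 55 of 81 and 33 of 60 wells. The homeostasis CD49b+ plates had 21, 33 and 38 UMIs. In CPM of all retained UMIs, Npy stood at 550, 670 and 385 on the irradiated CD49b+ plates, all above the 121, 185 and 200 of homeostasis. In TMM-normalised CPM it stood at 639, 781 and 429.6 on the irradiated CD49b+ and at 1513, 722 and 785 on the irradiated CD49b− plates (log2FC −0.65 ± 0.25, adjusted p = 0.0381). The gate difference of Npy was −0.65 after irradiation and −2.58 in homeostasis, and the former did not pass without the block (adjusted p = 0.0707), with DESeq2 (adjusted p = 0.163), with wells thinned to 1000 UMIs (log2FC −0.38), without replicate 1 (log2FC −0.41) or without replicate 3 (−0.56). Neither difference between the treatments was called without the pool block, by DESeq2 or without the upper UMI limit, and that of Resp18 turned to −2.64 without irradiated replicates 1 and 2. The call for Resp18 was also lost without homeostasis replicate 1 (6.44), and that for Npy without homeostasis replicate 1 (1.91) or 2 (1.73) or irradiated replicate 2 (1.52), or with wells of at least 2000 UMIs (1.82, adjusted p = 0.0552).

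**Figure D5:**
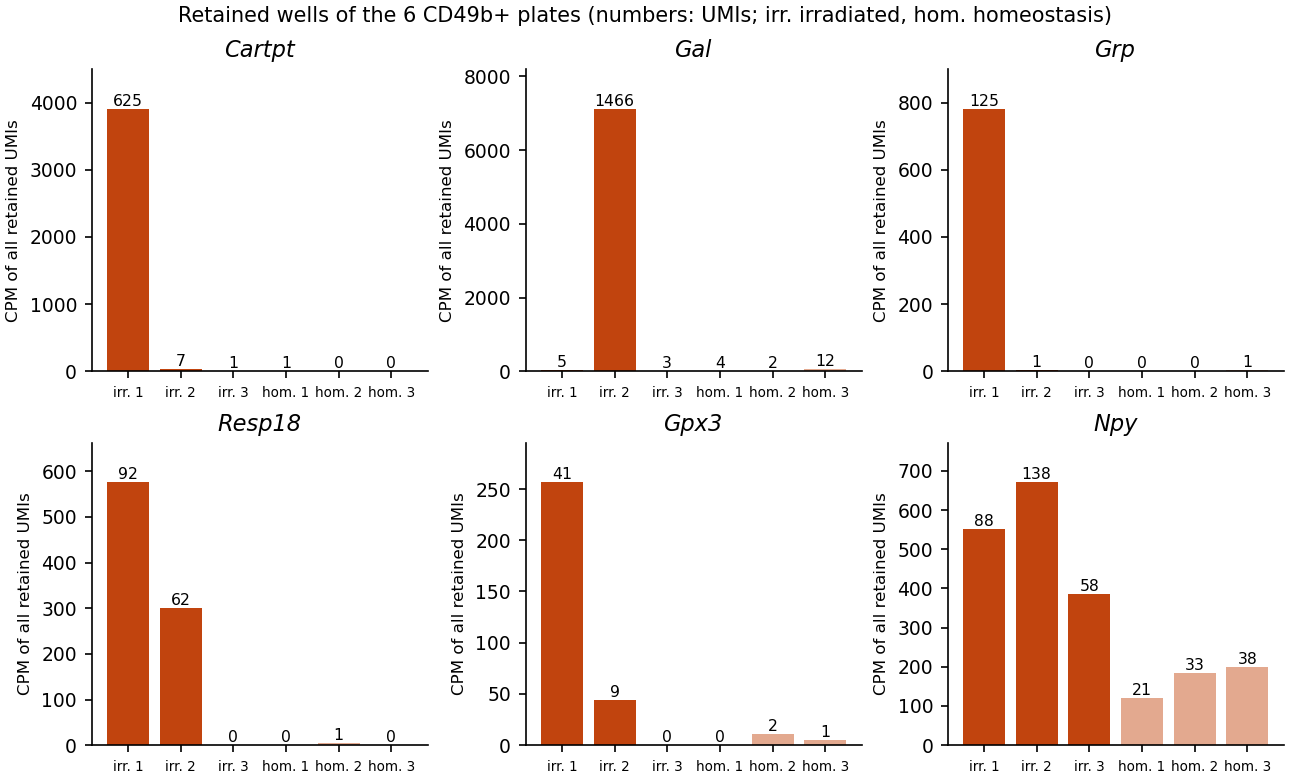
Level of 6 genes in the retained wells of the 3 irradiated and 3 homeostasis CD49b+ plates, in CPM of all retained UMIs; the number on each bar is the UMI count. Cartpt, Gal and Grp are high on 1 irradiated plate each. Resp18 is high on irradiated replicates 1 and 2, and Gpx3 mainly on replicate 1, with 41 UMIs against 9 on replicate 2. Both are at 0 on irradiated replicate 3, and Npy is higher on all 3 irradiated plates than on the 3 of homeostasis.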

How the data were processed

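The deposited table holds UMI counts per gene and well, made by the authors, for 50508 genes and 1150 wells on 12 plates, 1 plate per sample. Cells were lysed and their RNA copied to cDNA well by well before Nextera XT library preparation, per the labels' protocols. The submitters' processing notes name STAR 2.5.3a, featureCounts 1.5.3, GRCm38 and GRCh38, with no role given; how UMIs were collapsed is not given in the sources used here. Every column belonged to a labelled plate. Plates used the same well barcodes (95 to 96 shared by any pair), and 0 wells held identical columns.

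The members, gene lists and tests were chosen with earlier results of these data known. Retained wells were summed per plate. The 6 irradiated plates were fitted with edgeR 4.0.16 in R 4.3.3 (TMM factors, filterByExpr, quasi-likelihood test) with the mouse pool as a block, because both gates of a replicate came from the same mice. Deviations of plates of the same pool correlated at 0.182, 0.133 and −0.0167 over 6576 genes, and those of different pools at −0.210 to 0.115. P-values were adjusted by Benjamini-Hochberg over all tested genes, with a threshold of 0.05. The interaction with treatment was fitted on all 12 plates. Tested on simulated counts, the gate fit recovered 74 of 100 genes changed by 4-fold and 34 of 100 changed by 2-fold, with 4 false calls. Apart from those changes each simulated gene had the same level on all plates, unlike the real genes. These counts therefore do not give the recovery or the false calls of the real gate comparison.

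Named genes were, per list, the 3 highest tested members and up to 2 called against the rest, the 10 largest changes per direction outside the lists with a mean of at least 100 CPM, the genes called for the difference, the 10 highest similar genes, and a fixed set of markers; others were chosen after their values were seen, and some genes that the rule names are not reported here. Thinned shares drew 1000 UMIs from each well. Gene positions are from GENCODE vM21 on GRCm38, which names 25012 of the 26254 genes with a retained UMI, and promoters are from RefSeq on GRCm38.p6. Alternatives were DESeq2 1.42.0, other size factors, no filter, no block, other limits on wells, and leaving out each replicate. P-values rest on how far the gate difference within a pool varied over 3 pools of mice a treatment, with a variance partly shared across genes.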

Additional observations from a re-analysis of the deposited data

Results flagged for a closer look

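Both genes whose gate difference differed between irradiation and homeostasis by the interaction test are given here. For Resp18 the difference between the gate differences was 6.96 on the log2 scale (edgeR adjusted p = 0.00319), with 92, 62 and 0 UMIs on the irradiated CD49b+ plates and 1 UMI over the 3 plates of homeostasis, so its size depends on the prior count of the fit. The wells left out of replicates 1 and 2 held 95 and 200 Resp18 UMIs, and their part in the difference was not tested.

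For Npy the difference was 1.92 (edgeR adjusted p = 0.0124). All 3 irradiated CD49b+ plates (88, 138 and 58 UMIs) lay above all 3 of homeostasis (21, 33 and 38 UMIs), and the left-out wells held 1 and 0.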

How the results depend on the processing

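Of 162 named genes called after irradiation, 139 kept their direction and call under every alternative run, 73 of 2237 alternative values lost the call and 0 reversed. Against 1488 genes higher and 1508 lower of 6576 tested, 480 and 424 were called of only 1757 tested with wells thinned to 1000 UMIs. At 4-fold or more, 660 and 735 were called. DESeq2 called 996 lower, and 2512 were lower of 23506 tested with no filter on low counts. Without that filter the share of calls that were higher moved from 49.7% to 34.8% and the median log2FC of all genes from −0.13 to −0.49. Leaving out a replicate gave 1111 to 1750 higher and 1174 to 1693 lower. No call shared with an alternative had the opposite direction. Without the replicate block 1528 were higher and 1535 lower. Among the called genes named, leaving out the block ended the call of Cartpt, Gal, Npy and Cox6b1 after irradiation, and of Resp18 and Npy for the difference between treatments. DESeq2 ended the calls after irradiation of Atm, Ifngr2, Msmo1, Ngfr, Npy, Resp18, Scg3 and Tbx3, among others.

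For that difference 2 genes were higher and 0 lower. The count higher was 0 with no replicate block, with DESeq2, with no upper UMI limit and, chosen after seeing the data, without irradiated replicates 1 and 2. It was 1 with wells of at least 2000 UMIs, 5 of 2400 tested with thinned wells and 11 of 26254 tested with no filter. On leaving out a replicate it was between 0 and 10. The count lower was 1 with no filter and without irradiated replicates 1 and 2, and between 0 and 1 on leaving out a replicate. Resp18 was −2.64 without irradiated replicates 1 and 2. The cause of these moves was not tested. The CD49b+ plates, at 205844 UMIs or fewer, limit what can be seen of low genes.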

Other observations

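Gm37895, a gene model to be experimentally tested (TEC) at chr1:25775757-25780306, minus strand, GRCm38, differed widely between mouse pools. After irradiation it stood at 4212, 436 and 718 CPM on the CD49b+ plates of replicates 1, 2 and 3, and at 124, 15.8 and 24.8 CPM on the CD49b− plates of the same pools. In homeostasis it stood at 4480 CPM on the CD49b+ plate of replicate 1 and at 5.72 and 0 CPM on those of replicates 2 and 3, with 142, 1.67 and 5.68 CPM on the CD49b− plates. The order of the pools was thus the same in both gates after irradiation, and replicate 1 was the highest in both treatments and both gates. Within a pool the fold of CD49b+ over CD49b− cells was 33.9, 27.5 and 29.0 after irradiation.

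Grp, which encodes gastrin-releasing peptide, had 125, 1 and 0 UMIs on the irradiated CD49b+ plates, and 143 and 0 in the left-out wells of replicates 1 and 2. Sncg, a synuclein of neurons, had 201, 54 and 12 UMIs on the irradiated CD49b+ plates and 42, 28 and 22 on those of homeostasis, with 163 and 122 in the left-out wells.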
